A study of Arabidopsis thaliana with 6 samples.

Results

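FLC, MAF2, SEP4, AP1 and AGL80 are 5 genes of the MADS-box family of transcription factors that the authors' deposited table lists as differing between dme and wild-type seedlings of Arabidopsis thaliana. They were chosen by their locus codes (AT5G10140, AT5G65050, AT2G03710, AT1G69120 and AT5G48670) from the 5322 rows of that table, and all 5 were found. The RNA came from whole seedlings of the Ler accession, collected at 7 days after germination on MS plates, in 3 libraries of wild type (WT) and 3 of the genotype labelled dme/-. No other allele or agent is given, the dme allele is not named in the sources used here, and no label says whether the libraries are separate plantings, so a p-value reflects only how these libraries vary, which may be technical. DME, the mutated gene, codes for a glycosylase that excises methylated cytosine from DNA. The question put to the seedlings is which transcripts differ without its normal function.

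The table gives, per gene, an average normalized count over the 6 libraries, a log2 fold change of dme over WT and its adjusted p. Genes are in it only where the change reached 2-fold and the adjusted p lay under 0.05. Because that comparison chose the 5 genes, their values are given as a description. The table holds no value per library, so neither the spread between libraries nor their depth can be given. DME itself was lower in the mutant, and the authors' deposited table puts its log2 fold change at -1.55 (adjusted p = 4.88e-17). The direction of DME was also used to read the fold as dme over WT, so it is not a separate check. Of a gene that is not listed, the table does not say whether it was tested.

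MADS-domain proteins bind DNA as dimers and are named for a conserved DNA-binding domain that is encoded at the start of the gene. The MIKC type, to which FLC, MAF2, SEP4 and AP1 belong, adds a keratin-like K-box and is known for the control of flowering time and of floral organ identity. The type I group, to which AGL80 belongs, lacks the K-box and is known mostly from the female gametophyte and the endosperm. FLC delays flowering by repressing the flowering genes FT and SOC1 until prolonged cold silences it.

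The MADS boxes are shown because this stretch is what all 5 genes have in common. In the RefSeq models on the TAIR10.1 assembly, the first 180 coding bases lie at chr5:3179160-3179339 on the minus strand for FLC, chr5:25982415-25982594 on the plus strand for MAF2 and chr2:1129622-1129801 on the plus strand for SEP4. Those of AP1 lie at chr1:25985923-25986102 and those of AGL80 at chr5:19739611-19739790, both on the minus strand. Capitals mark the 54 positions at which all 5 genes carry the same base.
FLC: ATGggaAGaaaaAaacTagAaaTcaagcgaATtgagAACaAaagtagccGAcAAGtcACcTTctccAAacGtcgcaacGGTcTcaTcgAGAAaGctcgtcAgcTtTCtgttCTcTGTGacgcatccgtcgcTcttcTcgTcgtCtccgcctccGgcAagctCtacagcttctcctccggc
MAF2: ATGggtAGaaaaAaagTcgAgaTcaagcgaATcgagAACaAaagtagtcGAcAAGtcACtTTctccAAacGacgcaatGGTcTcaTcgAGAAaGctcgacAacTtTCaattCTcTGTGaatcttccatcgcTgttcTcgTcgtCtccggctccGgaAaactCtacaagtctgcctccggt
SEP4: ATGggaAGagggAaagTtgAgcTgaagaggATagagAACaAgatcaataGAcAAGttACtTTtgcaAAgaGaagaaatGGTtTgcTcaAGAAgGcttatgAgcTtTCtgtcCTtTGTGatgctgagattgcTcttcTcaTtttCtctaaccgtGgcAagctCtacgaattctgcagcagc
AP1: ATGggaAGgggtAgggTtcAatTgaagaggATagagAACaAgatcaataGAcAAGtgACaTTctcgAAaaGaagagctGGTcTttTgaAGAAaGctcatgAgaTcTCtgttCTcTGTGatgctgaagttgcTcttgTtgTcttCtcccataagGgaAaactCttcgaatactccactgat
AGL80: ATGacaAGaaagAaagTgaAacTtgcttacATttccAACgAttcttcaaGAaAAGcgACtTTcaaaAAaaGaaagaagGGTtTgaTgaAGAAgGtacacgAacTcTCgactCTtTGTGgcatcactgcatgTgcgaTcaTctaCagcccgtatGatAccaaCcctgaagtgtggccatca

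The shared bases made up 30.0% of the stretch, and without AGL80 the other 4 genes shared 91 of 180 bases (50.6%). FLC and MAF2 were the closest pair, with 153 identical bases (85.0%), and SEP4 and AP1 came next with 133 (73.9%). The pairs that join FLC or MAF2 with SEP4 or AP1 lay between 63.3% and 66.1%. AGL80 matched each of the others at 45.0% to 48.3% of the bases. FLC and MAF2, the most alike in sequence, were listed in opposite directions, and SEP4 and AP1 in the same direction.

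**Figure D1:**
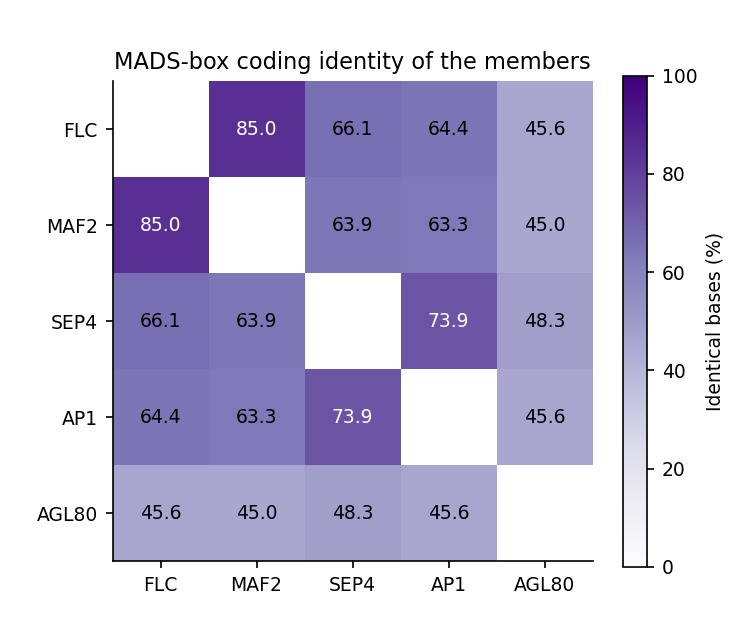
Percent of identical bases over the first 180 coding bases for each pair of the 5 genes, on the axes by name and as a colour scale. FLC and MAF2 (85.0%) and SEP4 and AP1 (73.9%) form the darkest cells, and the row of AGL80 is the palest, at 45.0% to 48.3%.

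FLC, the repressor of the floral transition, was lower in dme. Its log2 fold change, from the authors' deposited table, was -2.02, a level in dme of 0.246 times that of WT (average normalized count 102, adjusted p = 1.06e-11). If the mean and the fold are taken as those of 3 against 3 libraries, they imply averages of 164 normalized counts in WT and 40.3 in dme. Among the 1389 lower genes with reads in both genotypes, 20.2% had a larger change than FLC and 49.3% a smaller adjusted p. FLC was the only one of the 5 genes past a 4-fold change.

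The table gives no standard error, but its adjusted p bounds one. Under a Wald test, whose p is no larger than the adjusted p, the standard error of the log2 fold change of FLC was at most 0.30, and the widest 95% interval ran from -2.61 to -1.44. Whether the authors used such a test is not stated in those sources. The same bound is used for the other genes. Listed genes all have an adjusted p under 0.05, so each such interval excludes no change by construction.

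MAF2, a close relative of FLC that represses flowering and keeps short spells of cold from acting as a winter, was higher in dme. The authors' deposited table gives it a log2 fold change of 1.08, a 2.11-fold level (average normalized count 240, adjusted p = 7.40e-05). The implied means were 155 in WT and 326 in dme. The standard error was at most 0.27, with a widest 95% interval from 0.54 to 1.61. The change of MAF2 was small for the table, since 95.6% of the 3632 higher genes with reads in both genotypes had a larger one. Its change lies just inside the 2-fold limit of the table.

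Per kb of exon the implied WT levels of FLC and MAF2 were close, at 158 and 144 normalized counts. In dme they stood at 38.7 for FLC and 304 for MAF2. The level of MAF2 was thus 0.911 times that of FLC in WT and 7.86 times in dme. No spread between libraries is known for these ratios, so they carry no test.

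AP1, which specifies floral meristems and the outer floral organs, and SEP4, a SEPALLATA partner of floral organ identity proteins, were both lower in dme, at low levels. In the authors' deposited table the log2 fold change of AP1 was -1.16 (average normalized count 46.9, adjusted p = 0.00900). The implied means of AP1 were 64.8 in WT and 29.0 in dme, and the widest 95% interval of its log2 fold change ran from -2.03 to -0.29. That of SEP4 in the authors' deposited table was -1.36 (average normalized count 41.3, adjusted p = 0.00418). The implied means of SEP4 were 59.5 in WT and 23.1 in dme, with a widest 95% interval from -2.29 to -0.43. Of the lower genes with reads in both genotypes, 89.2% had a smaller adjusted p than AP1 and 85.0% a smaller one than SEP4. In RNA of whole seedlings, fewer cells of a type and less RNA per cell cannot be told apart.

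AGL80, which acts in the central cell of the female gametophyte and is known to be needed there for the expression of DME, was higher in dme and the least certain of the 5. The authors' deposited table puts its log2 fold change at 1.27, a 2.42-fold level (average normalized count 19.4, adjusted p = 0.0469). The implied means were 11.4 in WT and 27.5 in dme. The widest 95% interval ran from 0.02 to 2.53, and 99.8% of the higher genes with reads in both genotypes had a smaller adjusted p. The largest adjusted p of the table was 0.0498. At an adjusted p under 0.01, AGL80 was no longer called and the other 4 genes were. Of a list of 12 type I genes of the female gametophyte and endosperm, AGL80 was the 1 listed (8.33%, against 18.6% of the annotated protein-coding genes). The other 11 include AGL61, the partner of AGL80 in the central cell, and PHE1 and AGL62 of the endosperm.

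**Figure D2:**
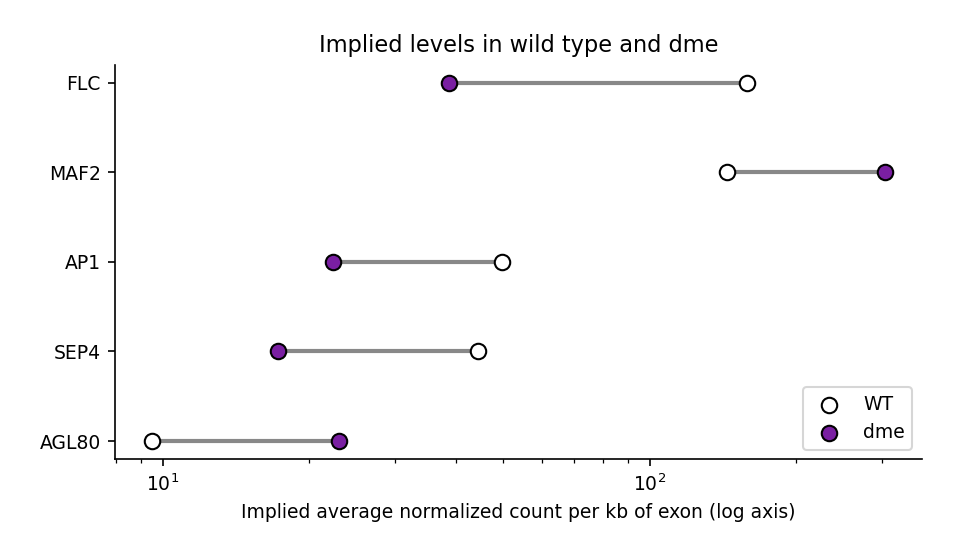
Implied average normalized count per kb of exon (log axis) of each gene in WT (open) and dme (filled), computed from the mean and the fold of the authors' deposited table, with no error since no values per library exist. FLC and MAF2 start close together in WT at 158 and 144 and part in dme to 38.7 and 304, while AP1, SEP4 and AGL80 stay at 49.8 or below.

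Per kb of exon, the order of the implied levels in WT was FLC, MAF2, AP1 (49.8), SEP4 (44.3) and AGL80 (9.49). In dme it was MAF2, FLC, AGL80 (23.0), AP1 (22.3) and SEP4 (17.2). The last 3 lay close together in dme, and whether neighbours in either order differ beyond the spread between libraries cannot be told. By the mean over all libraries, MAF2 stood above 52.6% of the listed genes, FLC above 36.6%, AP1 above 22.6%, SEP4 above 20.2% and AGL80 above 10.2%.

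**Figure D3:**
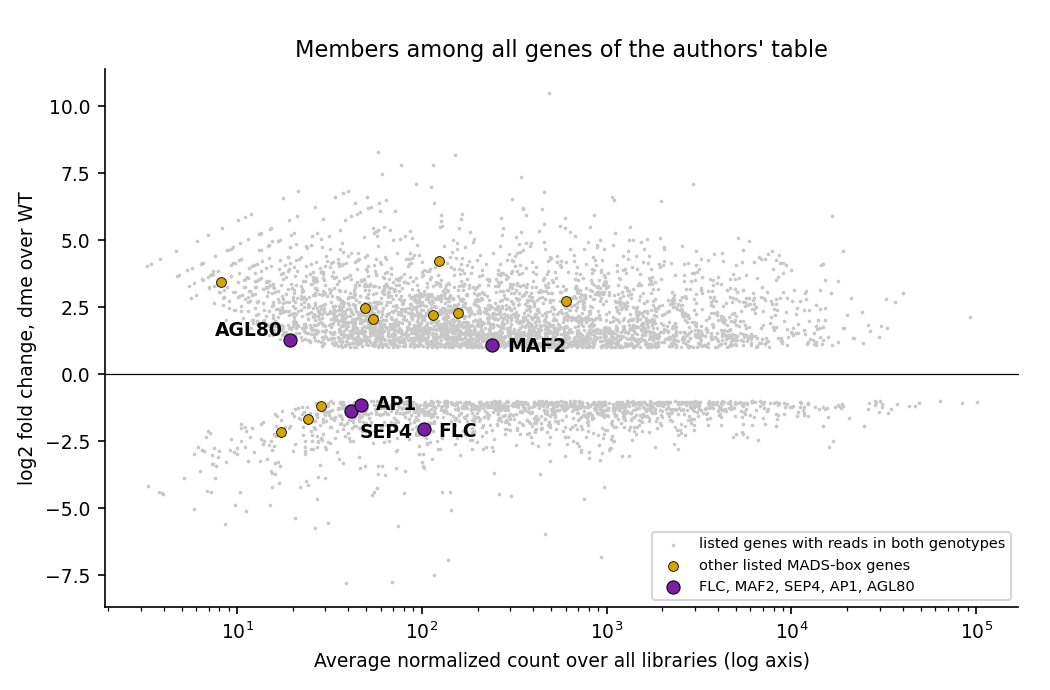
Log2 fold change of dme over WT against the average normalized count over all libraries (log axis) for listed genes with reads in both genotypes (grey), with other MADS-box genes (yellow) and the 5 genes (purple). FLC is the only purple point past a log2 fold change of 2 in size, and AGL80 has the lowest mean of the 5, at 19.4.

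The nearest relatives of the 5 genes differed in whether they were listed. In the FLC clade, a group of 6 repressor-type genes, FLC was lower and MAF2 higher, and FLM, MAF3, MAF4 and MAF5 were not listed. MAF2 to MAF5 stand in a row on chromosome 5, with gaps of 873, 780 and 1301 bases between the TAIR10.1 models, so MAF2 was the 1 listed gene of this row. Of the 4 SEPALLATA genes, SEP2 and SEP4 were lower, and SEP1 and SEP3 were not listed. The log2 fold change of SEP2 was -2.14, with an adjusted p-value of 0.0431 from the authors' deposited table. SEP2 was also the gene closest to SEP4 in the MADS box among the 120 other family genes compared, with 83.9% identical bases. In the clade of AP1, the closest relative CAL (91.7% identical) and FUL were not listed. AGL79 of that clade was higher (average normalized count 7.77), but its fold in the authors' deposited table depends on the mean alone, as when WT has no reads, so no size is given for it. AGL45 and AGL46, which with AT5G26630 are the 3 closest relatives of AGL80 in the MADS box at 63.9% to 70.0%, were higher in the same way at means of 5.16 and 17.2.

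The family as a whole was not listed more often than other genes. Of 121 genes annotated as MADS-box genes, 18 were listed (14.9%), against 18.6% of the 27444 annotated protein-coding genes. They were 12 higher genes (9.92%, against 13.7%) and 6 lower ones (4.96%, against 4.86%). Without the 5 genes, 13 of 116 were listed (11.2%), with 10 higher (8.62%) and 3 lower (2.59%). These shares fall by construction, since all 5 genes taken out are listed. The annotated genes include ones that may not have been tested, and no value can be read from the 5 genes' own listing, which chose them.

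Of 18 MIKC genes of floral identity, 4 were lower (22.2%, against 4.86% of protein-coding genes) and 1 higher (5.56%, against 13.7%). The lower ones include AP1 and SEP4, whose listing chose them, so that share is partly fixed by the choice. At an adjusted p under 0.01 only those 2 stayed, and with a mean of at least 50 the lower ones came to 0. SHP1, a gene of carpel and fruit development, stood at -1.68 (adjusted p = 0.0101), a log2 value from the authors' deposited table. AGL104, a pollen gene and the 1 listed of 6 on its list (16.7%, against 18.6% of protein-coding genes), stood at -1.16 with an adjusted p of 0.0468 there. All 6 lower MADS-box genes had low means, from 17.3 (SEP2) to 102 (FLC).

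Of 5 MIKC genes known from roots, 3 were higher (60.0%, against 13.7% of protein-coding genes) and none lower in the authors' deposited table. On the log2 scale of that table AGL12, a gene of root growth, rose by 2.29, AGL21, a gene of lateral root growth, by 2.47, and ANR1, a gene of the nitrate response of lateral roots, by 4.23. The adjusted p of ANR1 was 0.00194, weak for a mean of 123, and its widest 95% interval ran from 1.55 to 6.90. Of 16 MIKC genes placed in flowering time, 4 were higher (25.0%, against 13.7%) and FLC was the 1 lower (6.25%, against 4.86%). FLC and MAF2 count in these shares through the listing that chose them. The higher ones besides MAF2 were AGL14, AGL19 and AGL42. Each gene was placed in 1 list only, so a place in flowering time does not exclude expression in roots. Whether these genes rose apart from the root group was not tested. In the authors' deposited table AGL14 rose by 2.74 (adjusted p = 7.45e-78), AGL42 by 2.21 and AGL19 by 2.07 on the log2 scale. AGL100, a type I gene, was higher at a mean of 8.17, with an adjusted p of 0.0367.

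**Figure D4:**
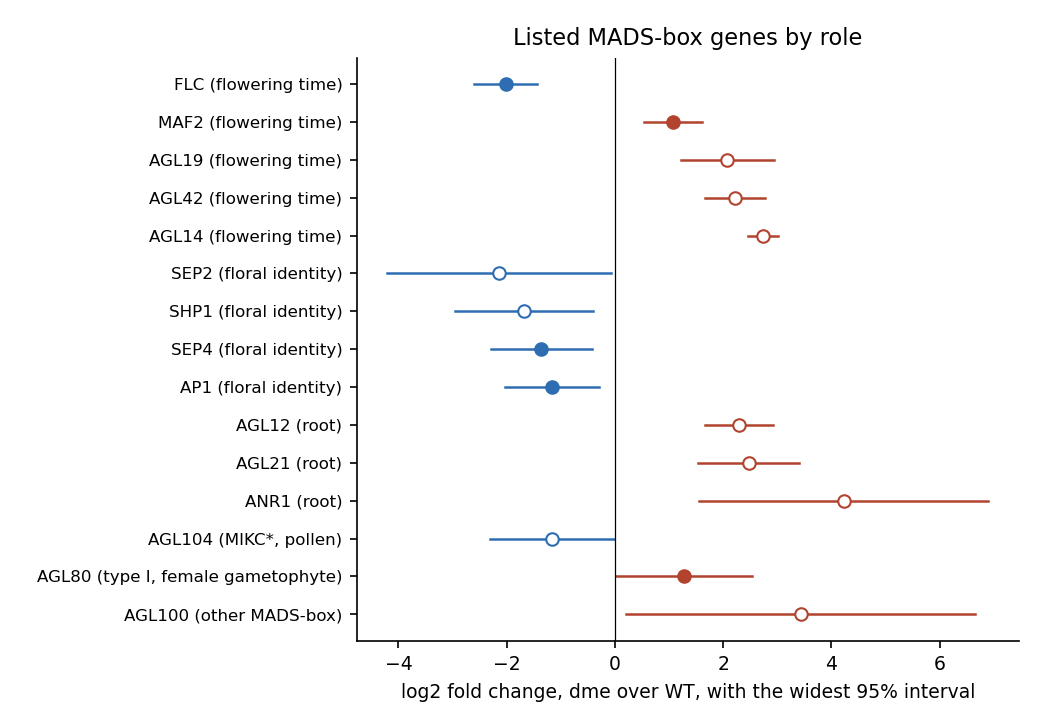
Log2 fold change of dme over WT for the 15 listed MADS-box genes with reads in both genotypes, grouped by known role, with the widest 95% interval that the adjusted p allows (lines). Filled points are FLC, MAF2, SEP4, AP1 and AGL80 and open points the other 10, and the 3 genes of the root list lie at 2.29 or above while the lower genes lie between -2.14 and -1.16. Each interval excludes no change by construction, since only genes with an adjusted p under 0.05 are listed.

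Markers of root and of shoot and leaf are given beside these groups. Of 14 root markers, 11 were higher (78.6%, against 13.7% of protein-coding genes) and 0 lower in the authors' deposited table. On its log2 scale the higher ones ran from COBL9 at 1.60 to CASP2 at 6.19. SHR, SCR and CASP5 were not listed. Of 12 shoot and leaf markers, 6 were lower and 0 higher, where 4.86% of protein-coding genes were lower and 13.7% higher. The lower markers ran from GLK2 at -2.15 to LHCB1.1 at -1.11 on the same scale. The other 6 were not listed, among them STM and KNAT1 of the shoot apex. At a 4-fold threshold, or with all log2 fold changes shifted by 0.5, the lower shoot and leaf markers came to 1. Their part in the values of the MADS-box genes was not tested.

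The genes placed on a list of FLC regulators were largely absent from the table. Of 37 FLC regulators, which include the autonomous pathway (FCA, FPA, FVE, FLD), the FRI complex, the cold-induced VIN3 and Polycomb proteins, 1 was listed (2.70%, against 18.6% of protein-coding genes). It was JMJ13, a histone demethylase gene, and whether it acts on FLC was not tested. The authors' deposited table gives JMJ13 a rise of 2.53 on the log2 scale (average normalized count 1281). The targets through which FLC acts, FT and SOC1, were not listed either, nor were the floral identity gene LFY and SVP, the partner of FLC.

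Of 28 other flowering genes, 4 were listed (14.3%, against 18.6% of protein-coding genes), 3 as lower and 1 as higher. The lower ones were CDF1, CDF2 and CDF3, which repress the flowering gene CO, and the authors' deposited table puts them at -1.59, -1.13 and -2.48 on the log2 scale. Their adjusted p-values were 9.35e-22 or smaller, at means of 1084 to 2824 normalized counts. ATC, a relative of the flowering repressor TFL1, rose by 2.98 there. CO itself, GI, the SPL genes of the age pathway and the AP2-type repressors of this list were not listed.

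**Figure D5:**
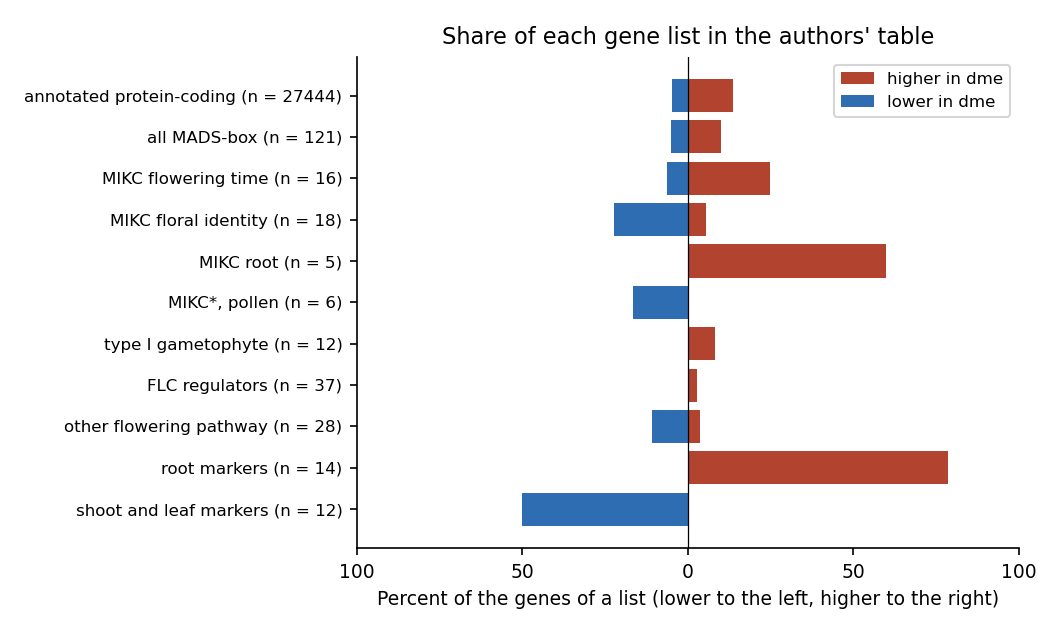
Percent of the genes of each list that the authors' deposited table holds as higher in dme (right, red) or lower (left, blue), with the number of genes of the list in its label. The MIKC genes of floral identity stand mainly on the lower side (22.2%), those of the root on the higher side (60.0%), and the FLC regulators reach 2.70%. FLC, MAF2, SEP4, AP1 and AGL80 count in their lists through the listing that chose them.

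Gene structure and position set some limits on these values. FLC has 7 exons and a first intron of 3493 bases in the TAIR10.1 model, and the Ler accession is known for a weak FLC allele with a transposon in that intron. Seedlings of both genotypes are given as Ler, and the labels do not state the FLC allele of either. AT5G01675, an antisense RNA gene known as COOLAIR, overlaps FLC on the opposite strand and was not listed, and without stated use of strand the reads of the pair cannot be told apart. None of the other 4 genes overlaps an annotated gene. Stretches of 50 bases within exons occurred nowhere else in the assembly for FLC, MAF2, SEP4 and AGL80, and for AP1 7 of 922 (0.759%) recurred, in CAL. These counts hold for TAIR10.1. No Ler sequence was compared, so whether Ler reads of these genes map to them alone was not tested.

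FLC lies 1.85 Mb from DME on chromosome 5, with 557 protein-coding genes between them, while AGL80 and MAF2 lie 18.4 and 24.7 Mb from DME. Of the 20 protein-coding genes nearest to FLC, 10 on each side, 6 were listed (30.0%, against 18.6% of all protein-coding genes), all as higher, the direction of most listed genes. In the authors' deposited table the adjacent AT5G10130 stood at 2.92 on the log2 scale, and AT5G10150 on the other side was not listed. Around MAF2, 4 of 20 were higher and 1 lower, around AP1 3 and 1, around AGL80 2 and 1, and around SEP4 1 and 1. Over the 5 genes, 20 of 100 neighbours were listed, close to the share of all protein-coding genes. A CArG box, the motif that MADS-domain proteins bind, was in none of the windows from 250 bases before to 50 after the start of the 5 genes, and in 3.05% of all such windows of protein-coding genes. That says only that these letters are not in those windows of the TAIR10.1 assembly.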

How the data were processed

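Whole seedlings were measured by RNA-seq in 3 WT and 3 dme libraries, grouped by title. Tools named in the submitters' processing notes are StringTie 2.1.3, HISAT2 2.1.0 and Trimmomatic 0.36, and the build is TAIR10. For read counting, strand and the differential test, the method is not stated in those notes or labels.

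The authors' deposited table holds an average normalized count per gene (a signal whose scaling is not stated), a log2 fold change, the same change as a linear fold, and an adjusted p-value, per the file headers. It has 0 columns of values per library. The smallest absolute log2 fold change was 1.00 and the largest adjusted p 0.0498. No header names the numerator of the fold, which was taken to be dme because the table is named for it and DME is then lower. Pairs of rows with a shared name and equal values (11) were counted once for ranks. In 290 genes the fold depends on the mean alone, and no fold is reported for them.

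The planned fits and protein comparison could not be made, since values per library and protein sequences are not used here. The genes and lists were chosen with earlier results of these data known. Named genes are the 5, DME and every listed gene of the MADS-box and flowering lists, while markers, neighbours and the gene closest in sequence were named in addition. Of the locus codes, 5292 of 5322 matched the RefSeq annotation of TAIR10.1, from which sequences and coordinates come, since the table holds none. No Ler sequence was used, so gene structure, gaps and motifs in the seedlings may differ. Implied means solve the mean and the fold for 3 against 3 libraries and are divided by the exon length of the model with the longest coding sequence. Only the implied means and the standard error bound were run on simulated data. Their outcomes there follow from the arithmetic, and the other steps were not tested in this way. Software was pandas 2.3.3 with scipy 1.17.1 under Python 3.11.15, and matplotlib 3.10.9 for plots.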

Additional observations from a re-analysis of the deposited data

How the results depend on the processing

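At a 4-fold threshold 1 of the 5 genes, FLC, was called. With an adjusted p under 0.01, 4 were called, all but AGL80. With all log2 fold changes shifted by -0.5, 3 passed a 2-fold change (FLC, SEP4 and AP1), and with a shift of 0.5, 3 passed (FLC, MAF2 and AGL80). The shifts are arithmetic examples of another scaling, too small to reverse the direction of any listed gene. Among all MADS-box genes, the 12 higher ones came to 6 with a mean of at least 50. The 6 lower ones came to 3 with an adjusted p under 0.01, 2 at 4-fold, 3 with a shift of 0.5 and 1 (FLC) with a mean of at least 50, fewer by construction. With 2 libraries in 1 genotype in place of 3, the implied means moved by at most 14.0%. In the MADS box, codon positions 1 and 2 alone, chosen after seeing the data, gave 92.5% for FLC and MAF2 and kept AGL80 lowest, at 49.2% to 53.3%. No paired analysis was possible because the table holds no values per library, so leaving out a replicate and the replicate block were not run, nor was identity between proteins. The depth of each library is unknown, so what it limits cannot be stated.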
